A study of Mus musculus with 8 samples.

Results

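Complement and coagulation are the serum cascades that the liver supplies, and they are described here through 41 genes, 19 of complement and 22 of coagulation, fibrinolysis and their inhibitors. The genes were chosen by symbol, all 41 were found among the 27453 genes of the deposited counts, and all 41 were among the 7668 genes with enough reads to be tested. Complement marks microbes and damaged cells. Recognition proteins (the mannose-binding lectins Mbl1 and Mbl2) and early proteases (C1ra, C1s1, Masp1, Masp2) start a chain in which C4 and C2 are cut. The resulting convertases cut C3. C5 (the gene is Hc in mice) then joins C6, C7, C8 and C9 in a pore called the membrane attack complex. Coagulation runs through serine proteases that activate one another until thrombin (F2) cuts fibrinogen (Fga, Fgb, Fgg) into fibrin. The antithrombin and heparin cofactor serpins and the protein C system hold it in check, and plasmin, made from plasminogen (Plg), dissolves the clot. Hepatocytes make most of these proteins, and several of them, C3 and fibrinogen among them, are acute phase proteins that inflammation is known to raise.

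The RNA came from whole livers of C57BL/6JN mice, an inbred strain, with 4 livers whose titles begin with O and 4 whose titles begin with Y. Replicates 1 and 2 of each set are males and replicates 3 and 4 are females, and no agent or genetic change is named for either set. By the age field the O-titled animals were 12 weeks old and the Y-titled animals 80 weeks old. The series text contrasts old animals (near 18 months) with young ones (near 2 months), and a protocol note speaks of the old animals as treated. The letters and the age field therefore point in opposite directions, which set is old cannot be settled here, and the sets are named by title. Polyadenylated RNA was read directly on nanopore flow cells, without a cDNA copy, so that each read is one RNA molecule read from its 3′ end.

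The O-titled libraries held 792004 to 2593200 mapped reads and the Y-titled ones 545171 to 1722220. The listed genes took 3.08% to 4.94% of the mapped reads of a library. Levels are given as CPM (counts-per-million over the tested genes, with library sizes adjusted by the trimmed mean of M values), with replicates in the order 1 to 4 unless stated. A CPM value is not divided by gene length, so levels of different genes are not ranked as molar amounts. Sums of cell type markers, here and below, are instead CPM over all mapped reads, without the adjustment of library sizes. Hepatocyte markers (Alb, Apoa1, Ttr, Cps1 and Ass1) summed to 70372 to 94380 CPM in the O-titled and 63947 to 108360 CPM in the Y-titled livers. Markers of Kupffer cells, the macrophages of the liver, summed to 683, 279, 775 and 575 CPM in the O-titled livers, against 363, 317, 393 and 401 CPM in the Y-titled ones. Markers of stellate cells and fibroblasts summed to 237, 205, 276 and 249.8 CPM in the O-titled livers, against 156, 128, 188 and 184 CPM in the Y-titled ones, so that every O-titled liver lay above every Y-titled one. Of this list of 6 genes, 4 were tested between the title sets, and 3 had positive and 1 a negative log2 fold change. All 4 had an unadjusted edgeR p under 0.05, and 1 (Dcn) passed. The part of these markers in the title results was not tested. In bulk tissue, fewer cells of a type and less RNA per cell cannot be told apart. Female replicate 3 of the O-titled set stood apart in reads of the Mup genes, which encode major urinary proteins, at 0.287% of mapped reads, against 3.04% to 4.65% in the other females and 6.73% to 13.5% in the males.

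Summed over the 19 complement genes, the O-titled livers held 10549, 9949, 14807 and 12244 CPM and the Y-titled livers 10199, 12471, 9909 and 10128 CPM. The 22 coagulation genes summed to 27562, 22623, 31921 and 27286 CPM in the O-titled livers, against 26621, 29862, 27703 and 28809 CPM in the Y-titled ones. In both arms the values of the title sets overlapped, and the highest sum was in female replicate 3 of the O-titled set. The ratio of complement to coagulation reads was 0.383, 0.440, 0.464 and 0.449 in the O-titled livers and 0.383, 0.418, 0.358 and 0.352 in the Y-titled ones, with means of 0.434 ± 0.0355 and 0.378 ± 0.0300 (SD, n = 4 each). The O-titled females (0.464 and 0.449) lay above the Y-titled females (0.358 and 0.352), while the males of both sets fell in one range from 0.383 to 0.440. This ratio is a sum over chosen genes and carries no test. Fibrinogen and C3 took the largest parts of their arms, with the 3 fibrinogen chains at 15552, 11640.0, 17986 and 13988 CPM in the O-titled livers, against 15367, 17234, 15366 and 17269 CPM in the Y-titled ones. Without C3 in the complement sum and Fgb in the coagulation sum, the mean ratios were 0.338 in O-titled and 0.331 in Y-titled livers.

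**Figure D1:**
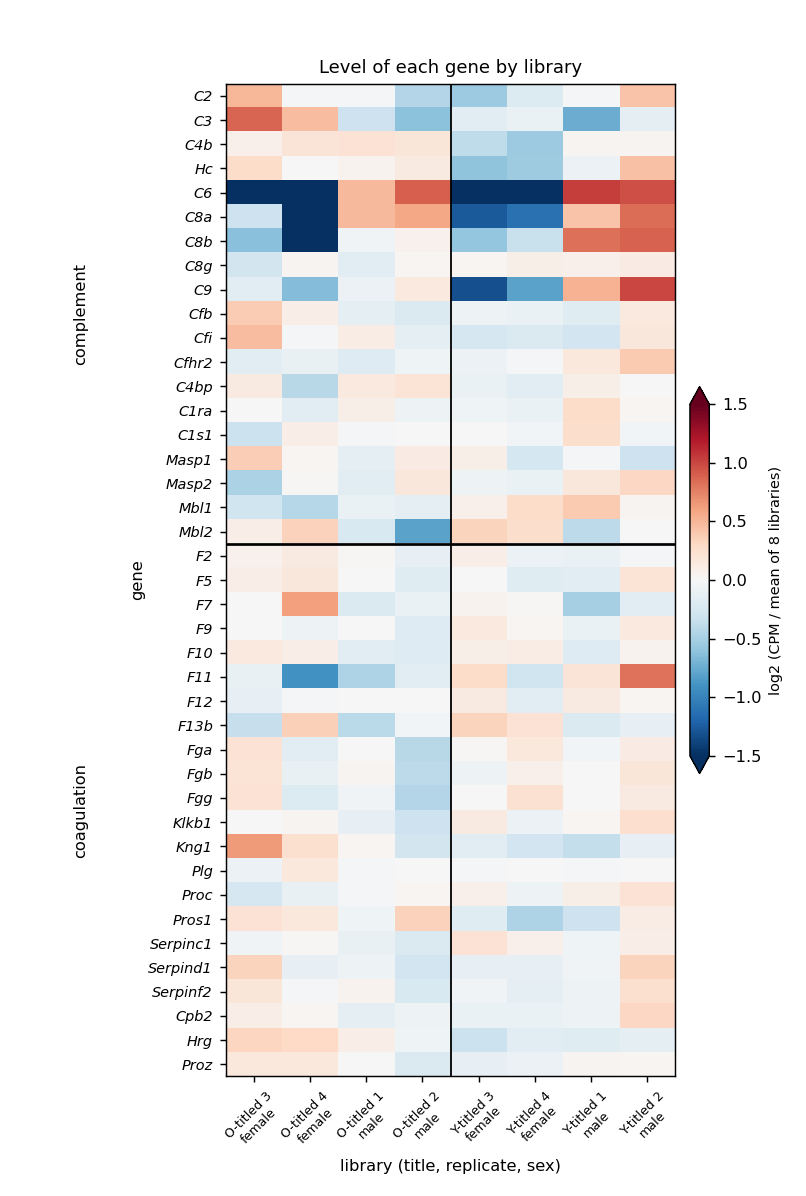
Level of each of the 41 genes in each library (columns, O-titled left of Y-titled), as the log2 of its CPM over its mean CPM in all 8 libraries; colours saturate at the ends of the bar, and the thick line parts complement from coagulation genes. C6, C8a, C8b and C9 lie below their means (blue) in the female columns, though C9 is pale in O-titled replicate 3. Most coagulation genes are pale in all columns.

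Between the title sets, 1 of the 41 genes passed the test, against a background of 4.06% of the 7668 genes tested. This gene was Mbl1, which fell in the O-titled livers, a direction in which 1.88% of all genes passed (2.18% passed as higher). The edgeR quasi-likelihood test with Benjamini-Hochberg adjustment and sex as a covariate was used, and 8 of the 41 had an unadjusted p under 0.05. The median log2 fold change, O-titled over Y-titled, was -0.06 over the complement genes and -0.04 over the coagulation genes, beside 0.01 over all genes tested. The p-values measure the spread between these 8 animals.

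Among the recognition proteins and early proteases, Mbl1 (ENSMUSG00000037780, chromosome 14, 41151458 to 41159601, plus strand; GENCODE M21 on mm10), the mannose-binding lectin A of mice, was at 244, 239, 212 and 194 CPM in the O-titled livers, against 344, 268, 275 and 316 CPM in the Y-titled ones. Every O-titled liver was below every Y-titled one (log2 fold change -0.45, SE 0.12, adjusted p = 0.0295, edgeR). The call depended on single libraries, with adjusted p of 0.0519 without O-titled replicate 3, 0.0943 without O-titled replicate 4, 0.138 without Y-titled replicate 1 and 0.148 without Y-titled replicate 4. DESeq2 gave an adjusted p of 0.0650 for Mbl1. The call was also lost in edgeR when thinned to equal depth, with title alone and with a replicate block. Mbl2, mannose-binding lectin C, was at 539, 360.3, 677 and 803 CPM in the O-titled livers, against 482, 634, 791 and 755 CPM in the Y-titled ones, and the sets overlapped (log2 fold change -0.18, SE 0.13, adjusted p = 0.577). The other 4 genes of this role, the proteases C1ra, C1s1, Masp1 and Masp2, had log2 fold changes between -0.18 and 0.19 and none passed. C1ra and C1s1 have close paralogs in mice, as does Cfhr2, so their counts are uncertain where reads match both copies.

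None of the 4 genes of the convertases passed. C3, the central component that both convertases cut, was at 3136, 2541, 7163 and 5366 CPM in the O-titled livers, against 2329, 3529, 3478 and 3636 CPM in the Y-titled ones. The O-titled females were the highest and the sets overlapped (log2 fold change 0.39, SE 0.22, adjusted p = 0.448). C4b, the C4 component of the classical and lectin pathways, was at 924, 901, 837 and 912 CPM in the O-titled livers, against 817, 817, 609 and 544 CPM in the Y-titled ones, so that each O-titled liver lay above each Y-titled one, with an adjusted p of 0.0709 that missed the threshold. C4b has a near-identical neighbour, C4a, whose symbol was not found among the genes of the deposited counts. How reads matching both were handled is not given in the sources used here. Cfb, the factor B protease of the alternative pathway, was at 879, 837, 1263 and 1037 CPM in the O-titled livers, against 857, 1071, 918 and 904 CPM in the Y-titled ones, with overlapping sets (log2 fold change 0.09, SE 0.13, adjusted p = 0.817). C2, the protease of the classical convertase, had a log2 fold change of 0.14. Because C2 ends 85 bases from the start of Cfb on the same strand of chromosome 17, reads that run through both loci could be assigned to either.

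None of the 6 terminal pathway genes and none of the 3 regulators passed between the title sets. C8b, which encodes the beta chain of C8, had the largest fold of all 41 genes, at 190.4, 206, 128 and 49.4 CPM in the O-titled livers, against 350.0, 364, 132 and 157 CPM in the Y-titled ones. Within males and within females, both O-titled values were below both Y-titled values, with a narrow gap in the females between 128 CPM in an O-titled and 132 CPM in a Y-titled liver (log2 fold change -0.79, SE 0.25, adjusted p = 0.149). C8b was called by DESeq2 and by limma voom, and by edgeR without O-titled replicate 3 or without O-titled replicate 4. C8g, the gamma chain of C8, was at 613, 699, 567 and 705 CPM in the O-titled livers, against 724, 744, 700.2 and 726 CPM in the Y-titled ones (log2 fold change -0.16, SE 0.11, adjusted p = 0.512). Of the regulators, Cfi, the factor I protease that inactivates C3b and C4b, was at 702, 589.9, 889 and 637 CPM in the O-titled livers, against 529, 731, 543 and 555 CPM in the Y-titled ones, with an adjusted p of 0.396. Cfhr2, a factor H related gene, and C4bp, the C4b-binding protein, had log2 fold changes of -0.24 and 0.07.

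Of the 22 coagulation genes, 0 passed between the title sets in edgeR, DESeq2 or limma voom, and 4 had an unadjusted edgeR p under 0.05. Those were F11, Kng1, Hrg and Pros1. F11, the protease factor XI, was at 28.3, 34.7, 36.3 and 20.9 CPM in the O-titled livers, against 44.5, 68.9, 47.2 and 31.9 CPM in the Y-titled ones, with the male O-titled livers below the male Y-titled ones and the females overlapping (log2 fold change -0.65, SE 0.21, adjusted p = 0.0943). Kng1, the kininogen that carries bradykinin and serves the contact system, was at 2579, 2094, 3936 and 3005 CPM in the O-titled livers, against 1970.2, 2324, 2279.7 and 2083 CPM in the Y-titled ones, and the sets overlapped (log2 fold change 0.40, SE 0.13, adjusted p = 0.115). Hrg, a histidine-rich plasma glycoprotein whose gene lies 96208 bases from Kng1 on chromosome 16, was at 791, 705, 919 and 904 CPM in the O-titled livers, against 651, 672, 590.4 and 657 CPM in the Y-titled ones, with all 4 O-titled livers above all 4 Y-titled ones (log2 fold change 0.36, SE 0.11, adjusted p = 0.0756). Pros1, the cofactor protein S of activated protein C, was at 45.5, 60.1, 55.3 and 52.8 CPM in the O-titled livers, against 38.3, 51.2, 41.8 and 34.5 CPM in the Y-titled ones, and the sets overlapped (log2 fold change 0.38, SE 0.17, adjusted p = 0.253). Kng1 has a paralog, Kng2, in mice, so that reads matching both genes are uncertain.

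The 3 fibrinogen chains, whose genes lie side by side on chromosome 3, were not called. Fga, the alpha chain, was at 5285, 3937, 6123 and 4740.5 CPM in the O-titled livers, against 5142, 5737, 5339.5 and 5886 CPM in the Y-titled ones (log2 fold change -0.14, SE 0.12, adjusted p = 0.640). Fgb, the beta chain, was at 5732, 4252, 6419 and 5174 CPM in the O-titled livers, against 5539.8, 6342, 5310.5 and 5885 CPM in the Y-titled ones (log2 fold change -0.10, SE 0.12, adjusted p = 0.771). Fgg, the gamma chain, was at 4534, 3451, 5444 and 4074 CPM in the O-titled livers, against 4686, 5154, 4716 and 5498 CPM in the Y-titled ones (log2 fold change -0.20, SE 0.12, adjusted p = 0.473). In all 3 the lowest O-titled liver was male replicate 2, and the sets overlapped. The other 6 vitamin K dependent factors besides Pros1 (F2, F7, F9, F10, Proc and Proz) lay between -0.17 and 0.26. Serpinc1, antithrombin, was at 2012, 1874, 2090.2 and 2194 CPM in the O-titled livers, against 2083, 2324, 2532 and 2283 CPM in the Y-titled ones (log2 fold change -0.17, SE 0.10, adjusted p = 0.451). Serpind1, heparin cofactor II, was at -0.03, and the fibrinolysis genes Plg, Serpinf2 (the plasmin inhibitor) and Cpb2 (a carboxypeptidase that slows fibrinolysis) lay between -0.04 and 0.02. F5, the factor V cofactor, and F13b, the carrier chain of the fibrin crosslinking enzyme, were at 0.07 and -0.14, and the contact proteases F12 and Klkb1 (factor XII and prekallikrein) at -0.08 and -0.16.

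**Figure D2:**
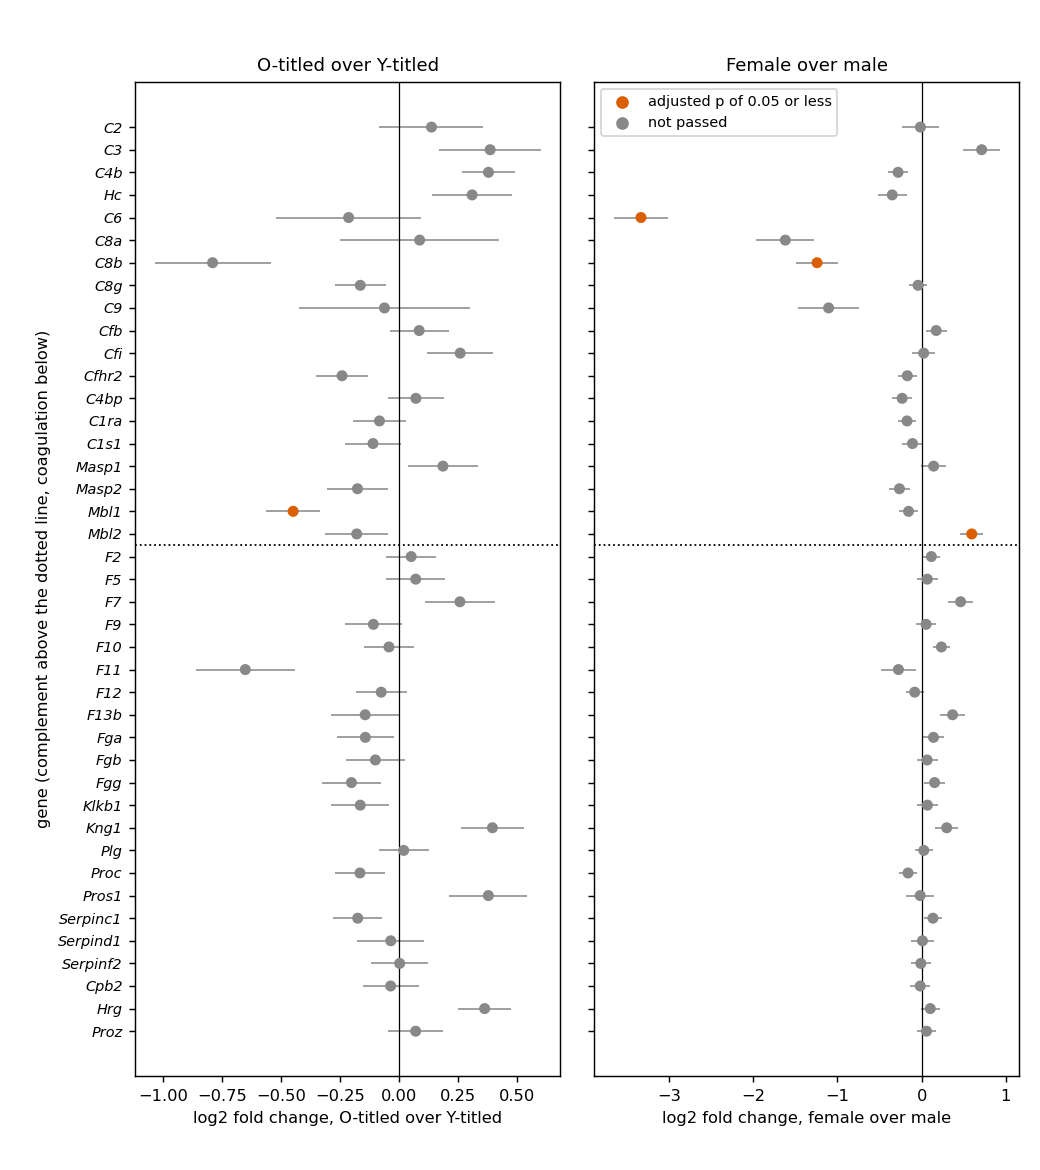
Log2 fold change of each gene with its standard error (bars), for O-titled over Y-titled livers (left) and for females over males (right), from one edgeR fit over 8 libraries. Orange points have an adjusted p of 0.05 or less: Mbl1 on the left, and C6, C8b and Mbl2 on the right.

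The 4 largest folds between the sexes among the 41 genes were in genes of the membrane attack complex, C6, C8a, C8b and C9. All 6 terminal genes had negative log2 fold changes, female over male, with a median of -1.17, and 2 of the 6, C6 and C8b, passed as lower in females. Of the 41 genes, 3 passed in all, the third being Mbl2, which was higher in females, and 11 had an unadjusted p under 0.05. The background was 3.00% of the 7668 genes tested, with 1.79% higher and 1.21% lower in females. As background, the serum of female mice is known for a weaker terminal pathway than that of males.

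C6, which joins C5b to start the pore (ENSMUSG00000022181, chromosome 15, 4727175 to 4814967, plus strand), was at 25.1, 6.26, 18.2 and 8.86 CPM in the females, against 113, 149, 166 and 158 CPM in the males, where each sex is listed with the O-titled replicates first. All 4 females were below all 4 males, and the reads behind these values were 29, 9, 20 and 10 in the females against 295, 112, 264 and 80 in the males. The mean in females was 14.6 ± 8.65 CPM and in males 146 ± 23.3 CPM (SD, n = 4 each; log2 fold change -3.33, SE 0.33, adjusted p = 0.000625, edgeR). C6 remained called in all 13 alternative fits, with the highest adjusted p at 0.00821. C8b (ENSMUSG00000029656, chromosome 4, 104766317 to 104804548, plus strand) was at 128, 49.4, 132 and 157 CPM in the females, against 190.4, 206, 350.0 and 364 CPM in the males. All 4 females were below all 4 males (log2 fold change -1.24, SE 0.25, adjusted p = 0.0392), and the call was lost in 6 of the 8 fits that left out 1 library, each one except those without O-titled replicate 3 or 4, with adjusted p between 0.136 and 0.166.

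C8a, the alpha chain of C8 (ENSMUSG00000035031, chromosome 4, 104815679 to 104876398, minus strand), lies 11130 bases from C8b in opposite orientation and was at 267, 92.4, 138 and 152 CPM in the females, against 462, 495, 444 and 589 CPM in the males. All females were again below all males, with a large spread in the O-titled females (log2 fold change -1.62, SE 0.34, adjusted p = 0.0958). C9, which polymerises to form the wall of the pore (ENSMUSG00000022149, chromosome 15, 6445327 to 6498751, plus strand), was at 349, 247, 155 and 223 CPM in the females, against 364, 431, 558 and 779.9 CPM in the males. Its females also lay below its males, but the gap was narrower in the O-titled livers (log2 fold change -1.10, SE 0.37, adjusted p = 0.292). DESeq2 and limma voom each called 6 of the 41 genes, namely C3, C6, C8a, C8b, C9 and Mbl2. Hc was at 473, 389, 257 and 268 CPM in the females, against 406, 429.7, 366 and 529.8 CPM in the males, with overlapping sexes (log2 fold change -0.35, adjusted p = 0.446). C8g had a log2 fold change of -0.04, and its difference from the other chains of C8 was not tested. The share of Mup reads, whose genes are known to be male-biased, also separated all females from all males, and its part in these results was not tested.

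**Figure D3:**
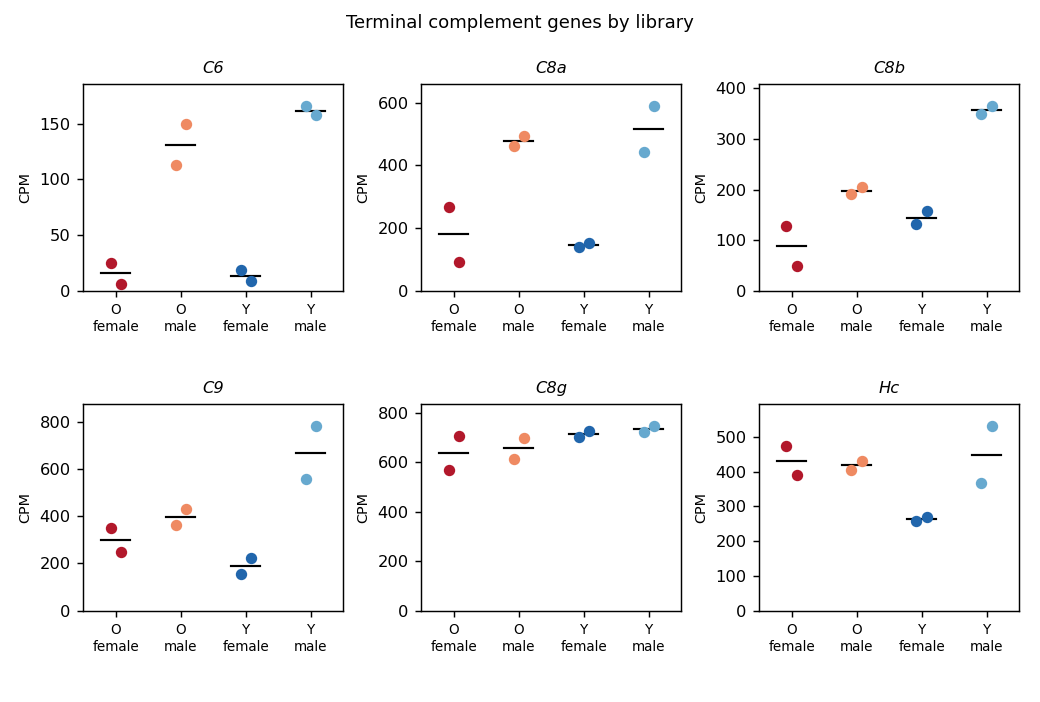
CPM of 6 terminal complement genes in each library, by title and sex (points are livers, black lines are means of 2 livers, axes start at 0). C6 lies at 6.26 to 25.1 CPM in females and at 113 to 166 CPM in males, and C8g differs little between the 4 groups.

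The promoter windows of C6, C8a, C8b and C9, the 4 genes with the largest folds between the sexes, are shown because each gene was lower in every female than in every male, although C8a and C9 did not pass the test; each is the 250 bases before the gene's start in RefSeq on GRCm38, 5′ to 3′ on the gene's own strand. The windows are C6 at chr15:4726960-4727209 (plus strand), C8a at chr4:104876399-104876648 (minus strand), C8b at chr4:104766067-104766316 (plus strand) and C9 at chr15:6445096-6445345 (plus strand). Capitals mark matches to the motifs described further on, a STAT match in C8a and a C/EBP match in C9.
C6: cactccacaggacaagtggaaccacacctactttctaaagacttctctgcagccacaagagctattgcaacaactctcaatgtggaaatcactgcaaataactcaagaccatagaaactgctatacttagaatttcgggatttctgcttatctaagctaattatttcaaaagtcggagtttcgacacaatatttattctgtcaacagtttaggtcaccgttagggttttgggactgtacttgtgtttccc
C8a: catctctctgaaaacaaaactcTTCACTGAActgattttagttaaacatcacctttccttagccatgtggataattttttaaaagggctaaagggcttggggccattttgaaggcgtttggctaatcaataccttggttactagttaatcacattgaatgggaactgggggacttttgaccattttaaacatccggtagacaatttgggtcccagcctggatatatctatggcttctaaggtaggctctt
C8b: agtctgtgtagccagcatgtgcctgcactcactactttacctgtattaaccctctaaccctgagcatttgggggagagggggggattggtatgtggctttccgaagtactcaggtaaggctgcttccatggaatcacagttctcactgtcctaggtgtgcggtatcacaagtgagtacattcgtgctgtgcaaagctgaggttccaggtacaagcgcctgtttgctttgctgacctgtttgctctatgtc
C9: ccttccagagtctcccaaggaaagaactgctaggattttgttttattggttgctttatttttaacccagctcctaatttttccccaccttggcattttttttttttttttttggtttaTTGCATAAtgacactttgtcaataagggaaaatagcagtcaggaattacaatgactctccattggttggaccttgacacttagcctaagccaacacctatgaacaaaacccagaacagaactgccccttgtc

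Outside the terminal pathway, Mbl2 (ENSMUSG00000024863, chromosome 19, 30232942 to 30239687, plus strand) was at 677, 803, 791 and 755 CPM in the females, against 539, 360.3, 482 and 634 CPM in the males. All females lay above all males (log2 fold change 0.59, SE 0.13, adjusted p = 0.0158). The call was lost without O-titled replicate 2, O-titled replicate 4 or Y-titled replicate 1, at adjusted p of 0.0683, 0.0649 and 0.0853. It was also lost when thinned to equal depth, at an adjusted p of 0.147. Mbl1 had a log2 fold change of -0.16 between the sexes. C3 was at 7163, 5366, 3478 and 3636 CPM in the females, against 3136, 2541, 2329 and 3529 CPM in the males, and the sexes overlapped by 1 male value above the lowest female value (log2 fold change 0.71, SE 0.22, adjusted p = 0.170). C4b, Cfb, Cfi, Cfhr2 and C4bp were not called.

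Between the sexes 0 of the 22 coagulation genes passed, 4 of them had an unadjusted p under 0.05, and 16 had positive log2 fold changes. DESeq2 and limma voom also called 0 of the 22. F7, the factor VII protease that starts coagulation with tissue factor, was at 90.7, 138, 93.5 and 91.2 CPM in the females, against 77.6, 84.1, 64.0 and 80.8 CPM in the males, and every female lay above every male (log2 fold change 0.46, SE 0.15, adjusted p = 0.122). F13b was at 117, 189, 186 and 172 CPM in the females, against 112, 144, 127 and 136 CPM in the males, with overlapping sexes (log2 fold change 0.37, SE 0.15, adjusted p = 0.254). The fold of Kng1 was 0.30 and that of F11 -0.28, with adjusted p of 0.363 and 0.703. F7 and F13b passed in 1 alternative fit, the one without O-titled replicate 3, at adjusted p of 0.0338 and 0.0373. The fibrinogen chains lay between 0.06 and 0.15.

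Within females, C3, C4b, Hc, Kng1 and Hrg were higher and Mbl1 was lower in the O-titled livers, while within males none of the 41 passed. The difference between females and males in this contrast was not called for any of the 41 genes. In females, 6 of the 41 genes passed, 5 higher and 1 lower in O-titled livers, against 5.06% of all genes tested (2.53% higher and 2.53% lower). In males 0 of 41 passed, against 1.40% of all genes, and 4 had an unadjusted p under 0.05. For the difference between the sexes, 0 of 41 passed against 0.339% of all genes, with 8 at an unadjusted p under 0.05, while DESeq2 called 1 (C9) and limma voom 0. These fits shared the spread over all 8 libraries, with 2 livers in each group.

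C3 (ENSMUSG00000024164, chromosome 17, 57203970 to 57228136, minus strand) was at 7163 and 5366 CPM in O-titled females, against 3478 and 3636 CPM in Y-titled females (log2 fold change 0.82, SE 0.19, adjusted p = 0.0256). In males it was at 3136 and 2541 CPM in O-titled males, against 2329 and 3529 CPM in Y-titled males (log2 fold change -0.04). C4b (ENSMUSG00000073418, chromosome 17, 34728380 to 34743882, minus strand) was at 837 and 912 CPM in O-titled females, against 609 and 544 CPM in Y-titled females (log2 fold change 0.60, SE 0.14, adjusted p = 0.0127). Hc, the C5 gene (ENSMUSG00000026874, chromosome 2, 34983331 to 35061438, minus strand), was at 473 and 389 CPM in O-titled females, against 257 and 268 CPM in Y-titled females (log2 fold change 0.71, SE 0.17, adjusted p = 0.0131), and in males at 406 and 429.7 CPM in O-titled males, against 366 and 529.8 CPM in Y-titled males. In each of these 3 genes both O-titled females were above both Y-titled females, and for C3 and Hc the males overlapped. For C4b both O-titled males were also above both Y-titled males, though the gene did not pass in males.

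Among coagulation genes, Kng1 (ENSMUSG00000022875, chromosome 16, 23057865 to 23082078, plus strand) was at 3936 and 3005 CPM in O-titled females, against 2279.7 and 2083 CPM in Y-titled females (log2 fold change 0.67, SE 0.16, adjusted p = 0.0148). Hrg (ENSMUSG00000022877, chromosome 16, 22951072 to 22961656, plus strand) was at 919 and 904 CPM in O-titled females, against 590.4 and 657 CPM in Y-titled females (log2 fold change 0.55, SE 0.14, adjusted p = 0.0238). Mbl1 was the gene that fell, at 212 and 194 CPM in O-titled females, against 275 and 316 CPM in Y-titled females (log2 fold change -0.55, SE 0.16, adjusted p = 0.0450). In males Hrg and Mbl1 did not pass, but their values separated by title in the same directions, while those of Kng1 overlapped. The number called in females was 2 (C4b and C8b) without O-titled replicate 3, 7 without O-titled replicate 4, 0 without Y-titled replicate 3 and 1 (C9) without Y-titled replicate 4. Thinned to equal depth, 1 gene (C4b) passed. The 2 O-titled females held 775 and 575 CPM of Kupffer cell markers, against 393 and 401 CPM in the Y-titled females, and 8 of 8 of these markers had positive log2 fold changes there with 0 called and 1 at an unadjusted p under 0.05. Stellate cell and fibroblast markers summed to 276 and 249.8 CPM in O-titled females, against 188 and 184 CPM in Y-titled females, with 3 of the 4 tested markers positive and 0 called. Lymphocyte markers summed to 36.6 and 19.7 CPM in O-titled females, against 3.59 and 11.3 CPM in Y-titled females (1 of 4 tested, 0 called). Erythroid markers summed to 2363 and 2894 CPM in O-titled females, against 1664 and 1968 CPM in Y-titled females (4 of 5 positive, 0 called). Neutrophil markers were lower in sum, at 17.4 and 64.3 CPM in O-titled females, against 87.2 and 74.0 CPM in Y-titled females. Of these 4 markers 2 were tested, 1 with a positive and 1 with a negative log2 fold change, and 0 were called. Mitochondrial reads took 7.29 and 6.82 percent of mapped reads in O-titled females, against 8.66 and 11.1 percent in Y-titled females. Reads of the Mup genes took 0.287 and 3.04 percent in O-titled females, against 3.79 and 4.65 percent in Y-titled females. These 5 marker sums and the mitochondrial and Mup shares did not overlap between the 2 groups of females, and their part in the female result was not tested.

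C9 had the smallest p for the difference between the sexes. It was at 349 and 247 CPM in O-titled females, against 155 and 223 CPM in Y-titled females and at 364 and 431 CPM in O-titled males, against 558 and 779.9 CPM in Y-titled males, so that the O-titled livers were higher in females and lower in males. The difference in log2 fold change, females minus males, was 1.40 (SE 0.32, adjusted p = 0.129, edgeR), and it passed without O-titled replicate 4, without Y-titled replicate 1 and without Y-titled replicate 4. The differences for Hc, C2 and C3 were 0.80, 0.96 and 0.86 with adjusted p of 0.235, 0.365 and 0.365. C3 passed without Y-titled replicate 1.

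**Figure D4:**
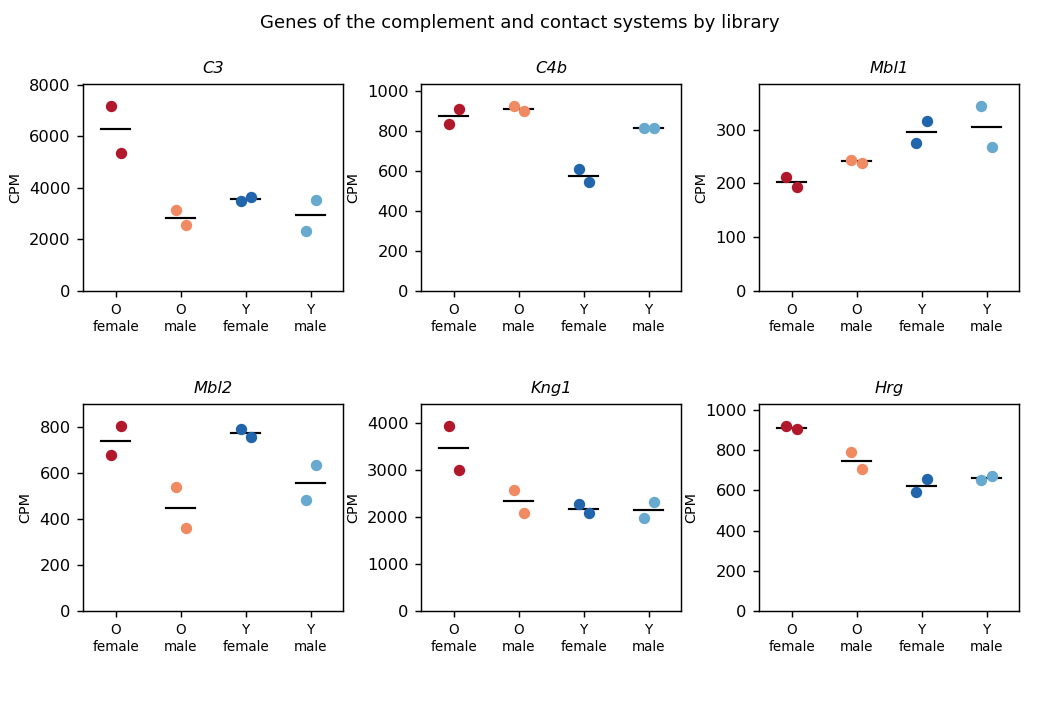
CPM of C3, C4b, Mbl1, Mbl2, Kng1 and Hrg in each library, by title and sex (points are livers, black lines are means of 2 livers, axes start at 0). In C3, C4b, Kng1 and Hrg the O-titled females lie above the Y-titled females, and in Mbl1 below them.

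The promoter windows of C3 and Hc, the complement genes with the largest folds among those that passed in females, are given in the same form, C3 at chr17:57228137-57228386 (minus strand) with a C/EBP match in capitals and Hc at chr2:35061413-35061662 (minus strand) with the letters TATAAA, whose first base lies at -239 from the start, and an HNF1 match.
C3: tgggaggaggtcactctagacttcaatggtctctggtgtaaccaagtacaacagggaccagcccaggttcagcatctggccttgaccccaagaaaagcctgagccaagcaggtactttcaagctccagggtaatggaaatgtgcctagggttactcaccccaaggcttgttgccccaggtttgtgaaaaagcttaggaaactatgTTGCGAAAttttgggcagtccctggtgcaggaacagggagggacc
Hc: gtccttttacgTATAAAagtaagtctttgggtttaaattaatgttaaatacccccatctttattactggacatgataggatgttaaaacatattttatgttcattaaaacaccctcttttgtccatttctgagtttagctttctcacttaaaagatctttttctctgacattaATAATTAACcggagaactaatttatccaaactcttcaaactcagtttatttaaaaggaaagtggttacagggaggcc

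Promoter windows were found for 33 of the 41 genes among the RefSeq entries, as 35 windows in all, since some genes have more than 1 start. On either strand, 5 short motifs were searched: TTCNNNGAA for STAT factors, TTGCNNAA for C/EBP factors, GTTAATNAT for HNF1, CAAAGTCCA for HNF4 and TATAAA, the letters of a TATA box. STAT and C/EBP factors carry acute phase signals in liver, and the HNF factors maintain hepatocyte expression. HNF1 letters were found in 5 of the 33 genes (C4bp, Cfhr2, F13b, Fga and Hc), whereas 0.737% of all 32851 windows hold them. C/EBP letters were found in 9 genes (C1s1, C3, C9, F11, F9, Fga, Fgb, Hrg and Klkb1), beside 9.56% of all windows, and STAT letters in 6 (C8a, F9, Fga, Fgb, Masp2 and Pros1), beside 7.02%. The HNF4 letters were in none of the 33, beside 0.384% of all windows, and the TATAAA letters were in Hc and Klkb1, beside 12.4%, with first bases at -239 and -132 from the start. A match is only a run of letters and not a shown binding site. Of the genes called in females, C3 and Hrg hold a C/EBP match, Hc an HNF1 match and the TATAAA letters, and Mbl1 no match. C4b and Kng1, also called in females, have no window and could not be searched. Of those called between the sexes, C6, C8b and Mbl2 hold no match.

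Genes of the same cascades outside the 41 were read from the same fit. Between the title sets, 0 of 16 tested complement genes passed, 5 had an unadjusted p under 0.05, and 15 had positive log2 fold changes with a median of 0.31. Of all 7668 genes tested, 1236 had an unadjusted p under 0.05 and 3895 had positive log2 fold changes, with a median of 0.01. Among them Vtn, Clu and Serping1, the most read, encode vitronectin, clusterin and the C1 inhibitor, and they had log2 fold changes of 0.09, 0.37 and 0.27. In females Clu and Serping1 passed as higher in O-titled livers (log2 fold changes 0.64 and 0.53, adjusted p of 0.00986 and 0.0273), a direction in which 2.53% of all genes passed. Part of this list (C1qa, C1qb, C1qc, Cfp and Vsig4) is made by macrophages. Of the 8 Kupffer cell markers, Vsig4 among them, 8 had positive log2 fold changes between the title sets and 0 passed. Their sums overlapped between the title sets, and their part in these values was not tested. C7, the terminal component known to be made largely outside the liver, had 2 and 1 reads in the O-titled males and none in the other 6 libraries.

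Of 10 tested coagulation genes outside the 41, 2 passed as higher in O-titled livers, beside 2.18% of all genes tested. Gas6, a vitamin K dependent ligand of receptor tyrosine kinases, was at 48.9, 41.4, 70.9 and 122 CPM in the O-titled livers, against 26.3, 13.8, 35.4 and 31.0 CPM in the Y-titled ones, and every O-titled liver was above every Y-titled one (log2 fold change 1.33, SE 0.21, adjusted p = 0.00112). Serpina10, the inhibitor of factor X that works with protein Z, was at 264, 218, 395 and 306 CPM in the O-titled livers, against 204, 215, 214 and 214 CPM in the Y-titled ones (log2 fold change 0.46, SE 0.13, adjusted p = 0.0474). Pzp and Mug1, alpha-macroglobulin inhibitors, and Kng2, the second kininogen gene, had log2 fold changes of 0.01, -0.74 and 0.40. In females Gas6, Serpina10 and Kng2 passed as higher and Mug1 as lower (log2 fold change -1.20), beside 2.53% of all genes in each direction. Between the sexes, Gas6 passed as higher and Mug1 as lower in females (log2 fold changes 0.89 and -1.05), beside 1.79% of all genes higher and 1.21% lower. Of 9 genes that process or export the factors, 0 passed between the title sets and 0 had an unadjusted p under 0.05 there. Among them Vkorc1, Mcfd2 and Lman1, which recycle vitamin K and carry factors V and VIII out of the endoplasmic reticulum, were at -0.11, 0.13 and -0.16. Of 10 transcription factors and signalling genes that regulate them, 0 passed between the title sets with 1 at an unadjusted p under 0.05, where Cebpa, Hnf4a and Cebpb were at 0.04, -0.39 and 0.51, and in females Hnf4a passed as lower (log2 fold change -0.56, adjusted p = 0.0329; 2.53% of all genes passed as lower).

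Several of the 41 genes are known to make proteins of different length from alternative 3′ ends, and reads that begin at the poly(A) tail tell these forms apart. The coding sequences split at the point shown, where the shared 30 bases before it are in lower case and the bases that only the named transcript holds there are in capitals (GENCODE M21). Kng1-201 encodes the high molecular weight kininogen of the contact system and Kng1-202 the low molecular weight form; Masp2-201 encodes the full protease and Masp2-202 the short protein MAp19, which lacks the protease domain; Masp1-201 and Masp1-203 encode MASP-1 and MASP-3, which differ in the protease domain.
Kng1-201: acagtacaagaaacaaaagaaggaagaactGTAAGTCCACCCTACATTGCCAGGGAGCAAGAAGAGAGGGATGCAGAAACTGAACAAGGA
Kng1-202: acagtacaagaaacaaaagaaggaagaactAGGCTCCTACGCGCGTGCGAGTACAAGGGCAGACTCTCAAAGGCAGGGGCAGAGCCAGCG
Masp2-201: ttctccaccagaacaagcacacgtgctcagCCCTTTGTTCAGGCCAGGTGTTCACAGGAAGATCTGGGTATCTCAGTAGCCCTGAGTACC
Masp2-202: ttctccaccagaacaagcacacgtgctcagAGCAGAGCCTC
Masp1-201: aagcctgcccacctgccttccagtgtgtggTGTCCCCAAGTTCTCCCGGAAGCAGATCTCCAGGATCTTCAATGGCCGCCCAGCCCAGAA
Masp1-203: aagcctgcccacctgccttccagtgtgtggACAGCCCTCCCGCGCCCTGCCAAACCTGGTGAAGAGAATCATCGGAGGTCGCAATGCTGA

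Of the 41 genes, 23 have 2 or more listed transcripts and 18 could be tested for transcript usage, and 0 passed between the title sets or between the sexes, beside 0% of the 1555 genes tested in either comparison. At an unadjusted p under 0.05 there was 1 gene between the title sets, Cfhr2, and 0 between the sexes. Shares of 5 transcripts, picked after their values were seen, are given as a description with no test.

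Kng1-201 took 13.9%, 15.4%, 11.4% and 14.9% of Kng1 reads in the O-titled livers, against 14.6%, 14.8%, 14.9% and 17.5% in the Y-titled ones, and the sets overlapped. The short Masp2-202 took the larger part of Masp2 reads, 63.9% ± 4.32 in O-titled and 65.6% ± 1.02 in Y-titled livers (SD, n = 4 each). Masp1-203, the MASP-3 form, took 50.0%, 45.2%, 40.96% and 40.3% of Masp1 reads in the females (O-titled 3 and 4, then Y-titled 3 and 4), against 42.0%, 24.1%, 29.5% and 20.7% in the males (O-titled 1 and 2, then Y-titled 1 and 2), with 1 male value inside the female range. Fga-202, the longer form of the fibrinogen alpha chain, took 6.37% ± 0.0954 of Fga reads in O-titled and 7.32% ± 0.835 in Y-titled livers (SD, n = 4 each), with overlapping sets. Fgg-202, a second gamma chain transcript, took 21.6% ± 1.30 of Fgg reads in O-titled and 20.7% ± 1.42 in Y-titled livers (SD, n = 4 each). The Masp1 shares rest on 728 reads over all libraries and those of Fga on 54312.

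**Figure D5:**
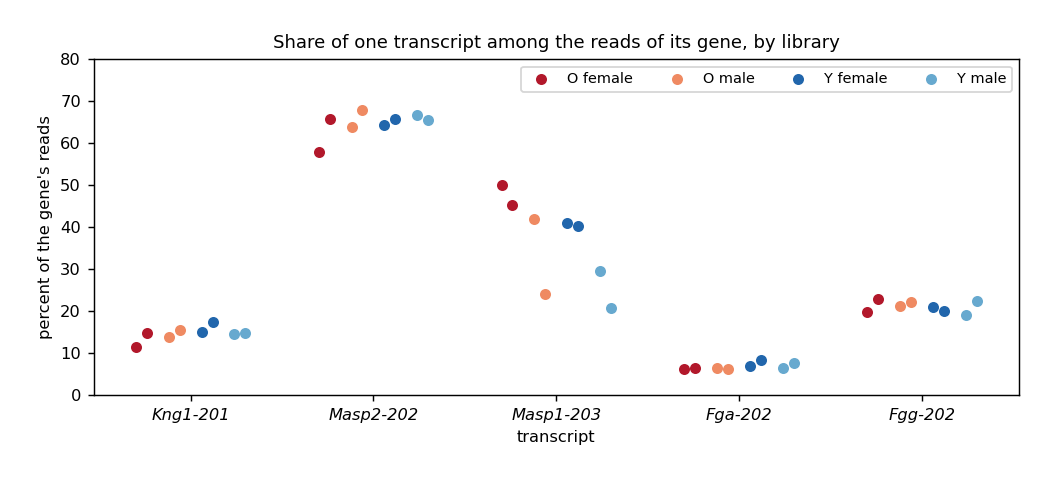
Share of one named transcript among all reads of its gene in each library, in percent, by title and sex (points are livers). Masp2-202 takes more than 50% of Masp2 reads in all 8 livers, and Masp1-203 spans 20.7% to 50.0%.

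Many reads were shorter than the annotated transcript. The median read length of the main transcript was 75% or more of its annotated length in 18 of the 41 genes and under 50% in 10. This is a ratio of lengths and not coverage, and it reached 107.8% for Masp2. The ratio was 19.0% for F5, 24.8% for Masp1, 28.1% for Hc, 29.96% for C4b and 34.6% for C3. It was 98.8% for F2 and 97.7% for Cpb2. For the genes with a low ratio, transcripts that differ only towards the 5′ end are not told apart by most reads. The mean of the median read lengths was lower in O-titled than in Y-titled livers in most of the 41 genes. The exceptions were C6, C8a, Masp1, F11, F13b, Pros1 and Proz, where it was higher. Median reads of C3 averaged 1653 bases in O-titled and 1845 bases in Y-titled livers. Those of C1s1 averaged 1630 bases in O-titled and 2178 bases in Y-titled livers. Whether the molecules behind short reads were cut or are shorter than annotated was not tested, nor was the part of read length in the counts.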

How the data were processed

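Nanopore direct RNA sequencing of polyadenylated RNA from 8 mouse livers was analysed. Per the labels' protocols, poly(A) RNA was selected on oligo(dT) beads and an adapter was ligated to 5′ ends before sequencing on R9.4.1 flow cells. Per the submitters' processing notes, minimap2 2.24, mm10 and DESeq2 were used, and the counting tool, annotation release and treatment of reads matching several transcripts are not given in the sources used here. The deposited tables hold whole-number counts of reads per transcript, not normalized by the authors, since they sum to the mapped reads stated in the same files, and read lengths in bases. They list 53983 transcripts of 27453 genes. Totals were 545171 to 2593200 mapped reads per library, so that 3 reads equal 1.16 to 5.50 CPM, a floor that covers counting error only.

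Counts were summed to genes and tested over the whole table with edgeR 4.0.16 in R 4.3.3 (robust quasi-likelihood test, trimmed mean of M values, filterByExpr with a minimum count of 10 by title and sex, 7668 genes, Benjamini-Hochberg adjustment at 0.05). Title and sex were fitted together, and a fit of 4 groups gave the differences within each sex and their difference. Adjusted p-values are from this test unless another tool is named. A standard error is the absolute log2 fold change divided by the square root of its F value. Transcript usage was tested with diffSpliceDGE and Simes p-values on 1555 genes. Alternatives were DESeq2 1.42.0, limma 3.58.1 (voom), DESeq2 size factors, no low count filter, thinning to equal depth, title alone, a replicate block and leaving out each library. The gene and transcript fits were tested on simulated data. Libraries of the same title and sex differed beyond sampling noise (chi-square over its degrees of freedom 3.92 to 10.3), so none was treated as a repeat.

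The 41 genes and all lists were chosen with earlier results of these data known. Given in full are the genes that passed by title, by sex or in their difference, the 5 with most reads in each arm, and the 4 with the largest folds in each arm by title and by sex. Of the other pathway genes, those that passed and the 3 with most reads per list are named. Other genes with values were chosen after these were seen. C4a and Tf were not found by symbol and are not analysed here.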

Additional observations from a re-analysis of the deposited data

Results flagged for a closer look

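In 7 of 88 groups of 4 libraries checked (the 41 genes, the summed levels of both arms and their ratio, in each title set), 1 library stood apart from the other 3 by a gap past the 95% critical value of Dixon's test for 4 values, and chance gives about 1 in 20. Male replicate 2 of the Y-titled set was the high library for Cfi at 730.7 CPM (529 to 555 CPM in the others), Serpind1 at 543.6 CPM (395 to 417 CPM), Cpb2 at 523.9 CPM (396 to 400.2 CPM) and the complement sum at 12471.0 CPM (9909 to 10199 CPM). This library was also the shallowest, with 545171 mapped reads. Male replicate 1 of the Y-titled set was low for C3 at 2328.9 CPM, against 3478 to 3636 CPM in the other Y-titled livers, and high for C1s1 at 272.22 CPM, against 221 to 229 CPM. Female replicate 4 of the O-titled set was low for C4bp, the C4b-binding protein, at 454.58 CPM, against 664 to 697 CPM in the other O-titled livers. None of the 7 concerns C6, C8b, Mbl1 or Mbl2. Each group of 4 held 2 males and 2 females, and C6, C8b and Mbl2 separated by sex within both title sets. The distance between the sexes counts in the range, so the check is weak for these genes and no conclusion is drawn from their absence. Whether a library stood apart within its own sex was not tested.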

How the results depend on the processing

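Of the 41 genes, 1 passed between the title sets, and under the alternatives the count was 6 without the low count filter (Kng1, C3, C8b, F11, Mbl1 and C4b), 2 with limma voom, 1 with DESeq2 (C8b in place of Mbl1) and 0 when thinned to equal depth or with title alone, and between 0 and 4 with 1 library left out. Between the sexes 3 passed, against 5 without the filter, 6 with DESeq2, 6 with limma voom, 2 when thinned and between 1 and 6 with 1 library left out. For the difference between the sexes, 0 passed, against 2 without the filter, 1 with DESeq2 and between 0 and 2 with 1 library left out. Within females the count was 6, against 8 without the filter, 1 when thinned and between 0 and 7 with 1 library left out, and within males 0, against 2 without the filter and between 0 and 2 with 1 library left out (2 without O-titled replicate 3 or 4). Fits that left out a library tested 8301 to 8419 genes, because the filter's smallest group then held 1 library. The causes were not tested. C6 was called between the sexes under every alternative run. Transcript usage gave 0 under the alternatives run. The mean complement to coagulation ratio was 0.3384 in O-titled and 0.331 in Y-titled livers without C3 and Fgb. No named gene that passed changed direction, and 21 values of single genes that had not passed changed sign.

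With the replicate number as a replicate block in place of sex, 0 of the 41 genes passed between the title sets. Libraries of the same number deviated together (correlations 0.38, 0.21, 0.22 and 0.36), but so did libraries of the same sex with different numbers, and with sex taken out the correlations were -0.04 in males and -0.04 in females, so the numbers were not used as pairs. The 2 livers per sex and title limit what the within-sex comparisons can show, and the fold of C6 rests on 9 to 29 reads per female library.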
